A study of Mus musculus with 10 samples.

Results

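The 8 genes described here, Lmo3, Lmo4, Lhx2, Rorb, Nr2f1, Bcl11a, Bhlhe22 and Emx2, encode transcription factors and cofactors that pattern the areas of the neocortex. They were taken by name as a set, chosen with earlier results of these data known, and all 8 were found among the 23283 gene names of the Nex table and the 54427 of the Camk2a table. The assay was bulk RNA sequencing of somatosensory cortex from mice with a conditional knockout (cKO) of Nsd1, which encodes a methyltransferase of lysine 36 on histone H3. The title of the series asks about setting up neuronal identity and keeping it. The Nex_cKO group held 3 libraries of genotype Nsd1Nex-cKO at 2.5 months of age, and the Nex_Ctrl group held 3 libraries of that age, of which replicates 1 and 2 were Nsd1fl/+ and replicate 3 was Nsd1fl/fl. The Camk2a_cKO group held 2 libraries of genotype Nsd1Camk2a-cKO at 3 months, and the Camk2a_Ctrl group held 2 Nsd1fl/+ libraries of that age. Nex-Cre acts from the Neurod6 locus in young excitatory neurons of the forebrain, and Camk2a-Cre acts later, in maturing excitatory neurons, so that other cell types of the dissected tissue are not targeted in either model. The labels do not say whether controls carried Cre or whether each replicate was a separate mouse, so p-values measure the spread between these samples, which may be technical.

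Cortical areas are laid out by graded transcription factors in the dividing cells of the embryo, and the young neurons then keep area-specific programs of their own. Emx2 and Nr2f1 are graded towards the caudal side, Emx2 medially and Nr2f1 laterally, and favour sensory areas, Lhx2 acts earlier as a selector of cortical fate, and Bcl11a, Bhlhe22, Lmo4, Rorb and Nr2f1 act in neurons after their last division. In the adult somatosensory cortex, Rorb marks layer 4, the layer that receives thalamic input and forms the barrels of the mouse whisker map.

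Of the 8 genes, 4 had lower RNA in Nex_cKO than in Nex_Ctrl cortex, Rorb, Lmo3, Lmo4 and Bcl11a, by 21.1% to 35.4% of the control mean. The promoter windows of these 4 are printed because these genes were lower together, so that their listed starts can be compared. Each runs 5′ to 3′ on the strand of the gene, from 250 bases before to 50 bases after its most upstream listed start (RefSeq, GRCm38.p6). Capitals mark the letters CANNTG, the E-box read by basic helix-loop-helix proteins such as those of the Neurod family, which reads the same on both strands.
Rorb, chr19:19111147-19111446, minus strand: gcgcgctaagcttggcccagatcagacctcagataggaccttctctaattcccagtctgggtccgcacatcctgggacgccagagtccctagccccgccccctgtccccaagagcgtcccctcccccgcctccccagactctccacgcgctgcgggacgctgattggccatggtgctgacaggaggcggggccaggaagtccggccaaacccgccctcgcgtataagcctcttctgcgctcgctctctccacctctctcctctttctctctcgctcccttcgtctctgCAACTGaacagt
Lmo3, chr6:138581919-138582218, minus strand: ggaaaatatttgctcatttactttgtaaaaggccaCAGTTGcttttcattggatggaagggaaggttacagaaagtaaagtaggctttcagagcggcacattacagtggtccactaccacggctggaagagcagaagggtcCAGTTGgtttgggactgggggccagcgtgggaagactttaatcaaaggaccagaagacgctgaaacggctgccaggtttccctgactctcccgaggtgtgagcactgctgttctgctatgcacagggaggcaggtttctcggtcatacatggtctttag
Lmo4, chr3:144205206-144205505, minus strand: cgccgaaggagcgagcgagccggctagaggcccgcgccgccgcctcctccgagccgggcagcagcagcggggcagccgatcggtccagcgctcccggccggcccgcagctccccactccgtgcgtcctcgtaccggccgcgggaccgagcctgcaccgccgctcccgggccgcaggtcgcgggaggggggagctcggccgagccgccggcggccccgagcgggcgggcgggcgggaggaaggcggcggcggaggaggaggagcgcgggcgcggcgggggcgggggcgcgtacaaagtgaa
Bcl11a, chr11:24080445-24080744, plus strand: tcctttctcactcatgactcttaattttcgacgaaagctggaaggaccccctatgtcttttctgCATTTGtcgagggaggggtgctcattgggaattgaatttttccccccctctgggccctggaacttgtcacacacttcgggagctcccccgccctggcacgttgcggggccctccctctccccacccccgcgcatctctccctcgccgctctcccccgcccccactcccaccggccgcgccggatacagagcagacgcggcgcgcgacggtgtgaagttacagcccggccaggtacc
The Rorb window held 1 E-box, the Lmo3 window 2, the Bcl11a window 1 and the Lmo4 window 0, and the motif was found in 72.3% of all 32851 windows of this length. CpG dinucleotides numbered 20 at Rorb, 7 at Lmo3, 52 at Lmo4 and 23 at Bcl11a, against a median of 7 over all windows. The 4 windows thus differ widely, the Lmo4 window being 81.3% G and C. In the gene models of the Camk2a table, the windows of Bcl11a, Nr2f1 and Emx2 lie inside the gene. Bcl11a starts there at chr11:24078056, before its printed window, so that window may not cover its first start. Windows were matched for 7 of the 8 genes, and Nr2f1, Lhx2 and Emx2, whose RNA did not pass the test, had 0 E-boxes and 23, 34 and 26 CpGs. A match of letters is a description and not a binding site.

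Values are FPKM, fragments per kilobase of transcript scaled to the library's mapped fragments. Each table was fitted whole with limma on log2(FPKM + 1), two-sided p-values were adjusted (Benjamini-Hochberg) across the genes of that table, and "rose", "fell", "higher" and "lower" of a gene mean an adjusted p under 0.05. A log2 change is cKO minus Ctrl on that scale, which makes the change of a low gene smaller than the ratio of its FPKM. All 8 genes passed the filter of FPKM 1 in both tables. The 2 tables rest on unlike gene models, so levels are not compared between them.

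Summed FPKM was 396900 to 564200 in Nex_cKO and 394600 to 482300 in Nex_Ctrl libraries, whose read depth is unknown. Camk2a_cKO libraries held 16901717 and 16943855 recovered reads, and Camk2a_Ctrl libraries 17521841 and 20074933. Nex_cKO replicate 3 stood apart, with the Y-linked Ddx3y at 16.21 FPKM and listed at 0 in the 5 other Nex libraries, Xist at 0.0035 FPKM against 33.63 to 46.45 in those 5, and 41.55% of its FPKM in rows with no gene name against 2.334% to 19.41%. The results for the 8 genes in the Nex model are therefore also given without it. All 4 Camk2a libraries had Ddx3y, at 11.11 and 11.67 FPKM in cKO and 12.35 and 10.98 FPKM in Ctrl libraries, and Xist under 0.01 FPKM, so that 5 of the 6 Nex libraries and the Camk2a libraries differ in these sex-linked genes. In the Nex table Nsd1 stood only in a row joined with Prelid1, so its deletion could not be checked there. In the Camk2a table Nsd1 was at 4.309 and 4.987 FPKM in cKO and 5.605 and 8.873 in Ctrl libraries (log2 change -0.52, limma adjusted p = 0.685). Neurod6, the locus that carries Nex-Cre, averaged 18.02 ± 3.85 FPKM in Nex_cKO and 31.63 ± 2.3 in Nex_Ctrl libraries (SD, n = 3 each, limma adjusted p = 0.00718).

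In control cortex of the Nex model the 8 genes ran, from high to low FPKM, in the order Lmo4, Nr2f1, Bcl11a, Lhx2, Lmo3, Bhlhe22, Rorb and Emx2. Lmo4 averaged 137.4 FPKM, above 96.2% of the genes tested, and Emx2 averaged 3.657 FPKM, above 22.7%. The ranges of Nr2f1 (48.21 to 53.21 FPKM) and Bcl11a (43.66 to 46.68 FPKM) in Nex_Ctrl libraries lay next to each other without overlap, and those of the other neighbours were also apart. All 8 genes of embryonic patterning thus had RNA in the grown somatosensory cortex of either model.

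**Figure D1:**
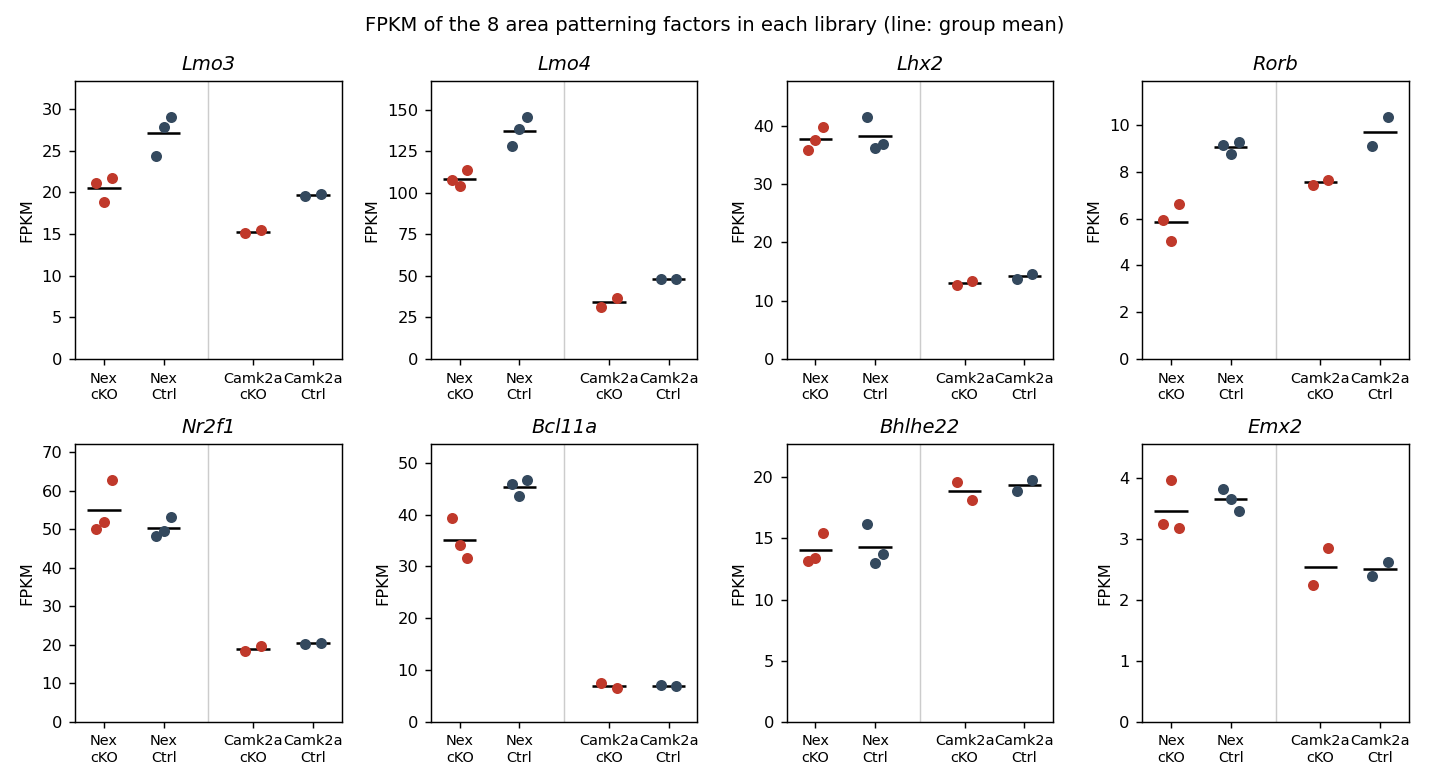
FPKM (y axis, from 0, each panel with its own scale) of the 8 genes in each library of Nex_cKO, Nex_Ctrl, Camk2a_cKO and Camk2a_Ctrl (x axis). Points are libraries and lines are group means. Rorb, Lmo3, Lmo4 and Bcl11a have all 3 Nex_cKO points under all 3 Nex_Ctrl points. Lmo3, Lmo4, Rorb, Nr2f1 and Lhx2 have both Camk2a_cKO points under both Camk2a_Ctrl points.

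Rorb, an orphan nuclear receptor that promotes the clustering of layer 4 neurons into barrels, showed the largest change of the 8 genes in the Nex model. It was at 5.922, 5.038 and 6.619 FPKM in Nex_cKO replicates 1 to 3, against 9.162, 8.782 and 9.283 FPKM in Nex_Ctrl replicates 1 to 3. The groups did not overlap, and the highest cKO library lay under the lowest control library. Mean FPKM was 5.86 ± 0.792 in Nex_cKO and 9.076 ± 0.261 in Nex_Ctrl (SD, n = 3 each), 35.4% lower when written as a share of the control mean, with a log2 change of -0.56 (SE 0.10, 95% interval -0.79 to -0.33, limma adjusted p = 0.0103). In bulk tissue, fewer cells of a type and less RNA per cell cannot be told apart, for Rorb or for any gene below.

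Lmo3 and Lmo4 encode LIM-only proteins, which bind no DNA of their own and bridge transcription factors to the adaptor LDB1. LMO4 is needed in the mouse for a normal map of thalamic inputs in the somatosensory cortex. Lmo4 was at 107.6, 104.3 and 113.6 FPKM in Nex_cKO libraries, against 128.4, 138.4 and 145.4 FPKM in Nex_Ctrl libraries. Lmo3 was at 21.16, 18.82 and 21.71 FPKM in Nex_cKO libraries, against 24.4, 27.79 and 29.0 FPKM in Nex_Ctrl libraries. Neither gene's groups overlapped, although the lowest control library lay close above the highest cKO library. Lmo4 fell, with means of 108.5 ± 4.71 FPKM in Nex_cKO and 137.4 ± 8.57 FPKM in Nex_Ctrl and a log2 change of -0.34 (SE 0.08, limma adjusted p = 0.0305). Lmo3 fell, with means of 20.56 ± 1.54 FPKM in Nex_cKO and 27.06 ± 2.38 FPKM in Nex_Ctrl and a log2 change of -0.38 (SE 0.09, limma adjusted p = 0.0335). Lmo3 has a second, weak row in that table, listed at 0 in 4 of the 6 libraries, and the summed rows gave -0.40 (limma adjusted p = 0.0157).

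Bcl11a (Ctip1), a zinc-finger repressor needed for neurons of sensory areas to take on their area identity, was at 39.32, 34.12 and 31.59 FPKM in Nex_cKO libraries, against 45.91, 43.66 and 46.68 FPKM in Nex_Ctrl libraries. Again the groups did not overlap. Mean FPKM was 35.01 ± 3.94 in Nex_cKO and 45.42 ± 1.57 in Nex_Ctrl, with a log2 change of -0.37 (SE 0.09, limma adjusted p = 0.0346).

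The other 4 genes did not pass the test in the Nex model, and each had overlapping groups. Nr2f1 (COUP-TFI), a nuclear receptor that favours sensory over motor areas, was at 50.13, 51.78 and 62.81 FPKM in Nex_cKO libraries, against 48.21, 49.51 and 53.21 FPKM in Nex_Ctrl libraries (log2 change 0.12, 95% interval -0.10 to 0.33, limma adjusted p = 0.5). Its start overlaps the antisense gene A830082K12Rik, and the labels do not state a stranded library, so their reads could be mixed. Lmo3, Bcl11a, Lhx2 and Emx2 overlap antisense genes as well, with the same limit. Replicate 3 of Nex_cKO was the highest library for Nr2f1 and also for A830082K12Rik, at 12.02 FPKM against 7.714 to 9.62 FPKM in the 5 other Nex libraries.

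Lhx2, a LIM-homeobox factor, was at 35.9, 37.61 and 39.82 FPKM in Nex_cKO libraries, against 41.45, 36.26 and 36.91 FPKM in Nex_Ctrl libraries (log2 change -0.01, 95% interval -0.19 to 0.16). Emx2, a homeobox factor highest in the caudal and medial cortex of the embryo, was at 3.25, 3.974 and 3.178 FPKM in Nex_cKO libraries, against 3.834, 3.667 and 3.471 FPKM in Nex_Ctrl libraries (-0.06, 95% interval -0.30 to 0.18). Neither gene shows a shift of its group, and the intervals leave room for a change of up to 0.30 on the log2 scale.

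Bhlhe22, a basic helix-loop-helix repressor of postmitotic area identity, stood in 2 rows of the Nex table. Its main row gave 13.17, 13.43 and 15.48 FPKM in Nex_cKO libraries, against 16.22, 12.97 and 13.71 FPKM in Nex_Ctrl libraries (log2 change -0.02, 95% interval -0.25 to 0.21). Its second row gave 7.795, 6.133 and 8.492 FPKM in Nex_cKO libraries, against 4.541, 7.536 and 6.502 FPKM in Nex_Ctrl libraries. The sum of both rows gave a log2 change of 0.06 (limma adjusted p = 0.708). The sign for Bhlhe22 changed in 7 of 13 alternative settings, with other scalings and left-out libraries among them, within the spread between libraries.

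Against the whole table, 4 of 8 genes fell where 4.06% of the 12528 genes tested did, and 0 of 8 rose where 4.47% did. Groups lay apart with cKO below Ctrl for 4 of 8 genes and for 18.9% of all genes tested. At an unadjusted p under 0.05, the same 4 genes were lower, as were 14.6% of all genes tested. The median log2 change was -0.20 over the 8 genes and -0.04 over all genes tested.

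These calls were not equally firm. Without Nex_cKO replicate 3, all 4 were still lower, with log2 changes of -0.64 for Rorb, -0.42 for Lmo3, -0.37 for Lmo4 and -0.30 for Bcl11a. Of the genes that did not pass, Nr2f1 was then at 0.02 (limma adjusted p = 0.896), Lhx2 at -0.05, Bhlhe22 at -0.09 and Emx2 at -0.02, so the 0.12 of Nr2f1 rested on that library. Rorb was lower in 11 of 13 alternative settings, with log2 changes of -0.64 to -0.46. Its adjusted p was 0.0507 without Nex_Ctrl replicate 3, the Nsd1fl/fl control, and 0.0625 after rescaling to the summed FPKM of named rows. Lmo3 and Bcl11a passed in 5 of the 13 settings each and Lmo4 in 4. Lmo3, Bcl11a and Lmo4 missed the threshold under the 3 other scalings tried, and when Nex_cKO replicate 2 or Nex_Ctrl replicate 2 or 3 was left out. Lmo3 and Lmo4 missed it also without Nex_cKO replicate 1, and Lmo4 and Bcl11a without Nex_Ctrl replicate 1. Over the 13 settings the highest adjusted p was 0.193 for Lmo3, 0.134 for Bcl11a and 0.229 for Lmo4, and the sign of all 4 genes was negative throughout.

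**Figure D2:**
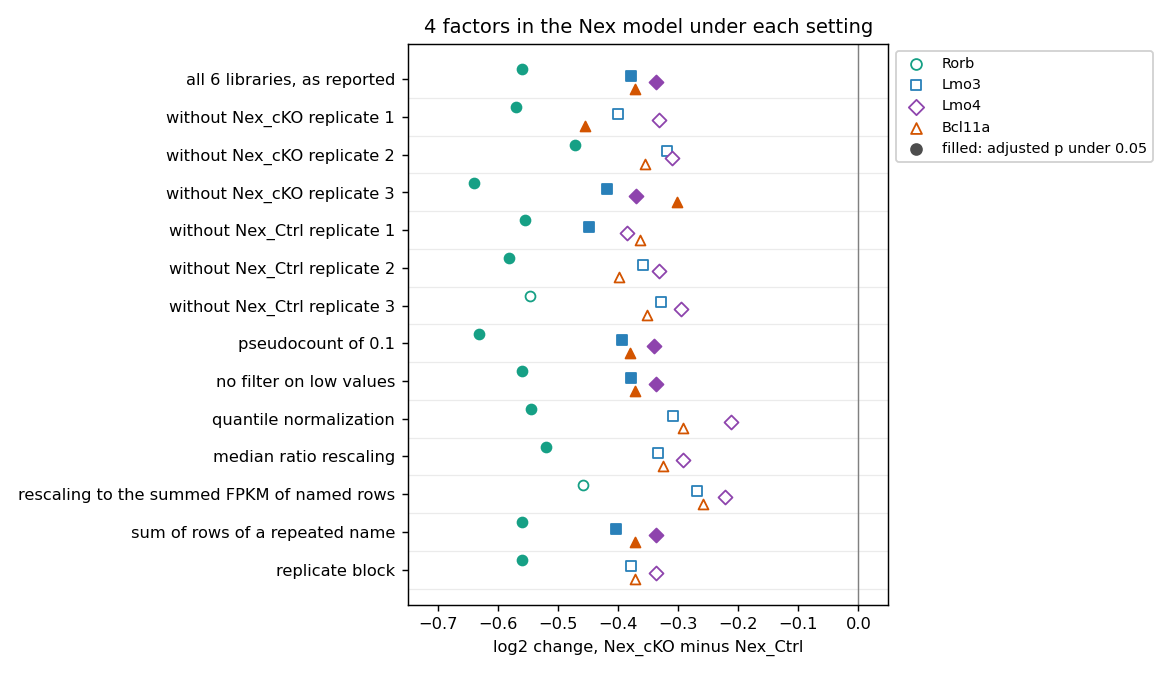
log2 change, Nex_cKO minus Nex_Ctrl (x axis), of Rorb, Lmo3, Lmo4 and Bcl11a under each setting (y axis), filled where the adjusted p was under 0.05. Rorb stays filled in 11 of the 13 alternatives, the others in 4 or 5, and every point lies left of 0.

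In the Camk2a model 0 of the 8 genes passed the test, and neither did any of the 12919 genes tested (0.0% lower and 0.0% higher), with 899 of them at an unadjusted p under 0.05. Limma's voom on the recovered reads called 1 gene, which was not among the 8. Lmo4 was at 31.46 and 36.81 FPKM in Camk2a_cKO replicates 1 and 2, against 47.9 and 48.17 FPKM in Camk2a_Ctrl replicates 1 and 2, from 1977 and 2185 reads in cKO and 2909 and 3362 reads in Ctrl libraries. The groups lay clearly apart, with a log2 change of -0.48 (SE 0.11, 95% interval -0.74 to -0.23, limma unadjusted p = 0.00365, adjusted p = 0.474). Lmo3 was at 15.1 and 15.44 FPKM in Camk2a_cKO libraries, against 19.57 and 19.81 FPKM in Camk2a_Ctrl libraries, with a log2 change of -0.35 (SE 0.09, limma unadjusted p = 0.00814, adjusted p = 0.501). Both LIM-only genes therefore had replicates that lay closer to each other than to the other group, short of the threshold over all genes.

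Rorb was at 7.446 and 7.647 FPKM in Camk2a_cKO libraries, against 9.089 and 10.33 FPKM in Camk2a_Ctrl libraries (log2 change -0.32, SE 0.11, limma unadjusted p = 0.0222, adjusted p = 0.613). At that unadjusted level 3 of the 8 genes were lower in cKO libraries, as were 3.35% of all genes tested. Nr2f1 was at 18.29 and 19.62 FPKM in Camk2a_cKO libraries, against 20.29 and 20.48 FPKM in Camk2a_Ctrl libraries (-0.10, limma adjusted p = 0.883). Lhx2 was at 12.63 and 13.38 FPKM in Camk2a_cKO libraries, against 13.79 and 14.54 FPKM in Camk2a_Ctrl libraries (-0.11, limma adjusted p = 0.869). With these, cKO libraries lay below all Ctrl libraries for 5 of the 8 genes and for 21.1% of all genes tested.

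Bcl11a overlapped in the Camk2a model, at 7.385 and 6.501 FPKM in Camk2a_cKO libraries, against 7.041 and 6.899 FPKM in Camk2a_Ctrl libraries (log2 change -0.01, 95% interval -0.27 to 0.25). Bhlhe22 was at 19.62 and 18.18 FPKM in Camk2a_cKO libraries, against 18.88 and 19.78 FPKM in Camk2a_Ctrl libraries (-0.03, 95% interval -0.26 to 0.20). Emx2 was at 2.246 and 2.853 FPKM in Camk2a_cKO libraries, against 2.401 and 2.628 FPKM in Camk2a_Ctrl libraries (0.01, 95% interval -0.33 to 0.35), from 120 and 144 reads in cKO and 124 and 156 reads in Ctrl libraries. The cKO libraries of these 3 genes lay on both sides of a control library. Emx2 had the fewest reads of the 8 genes and the widest interval.

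**Figure D3:**
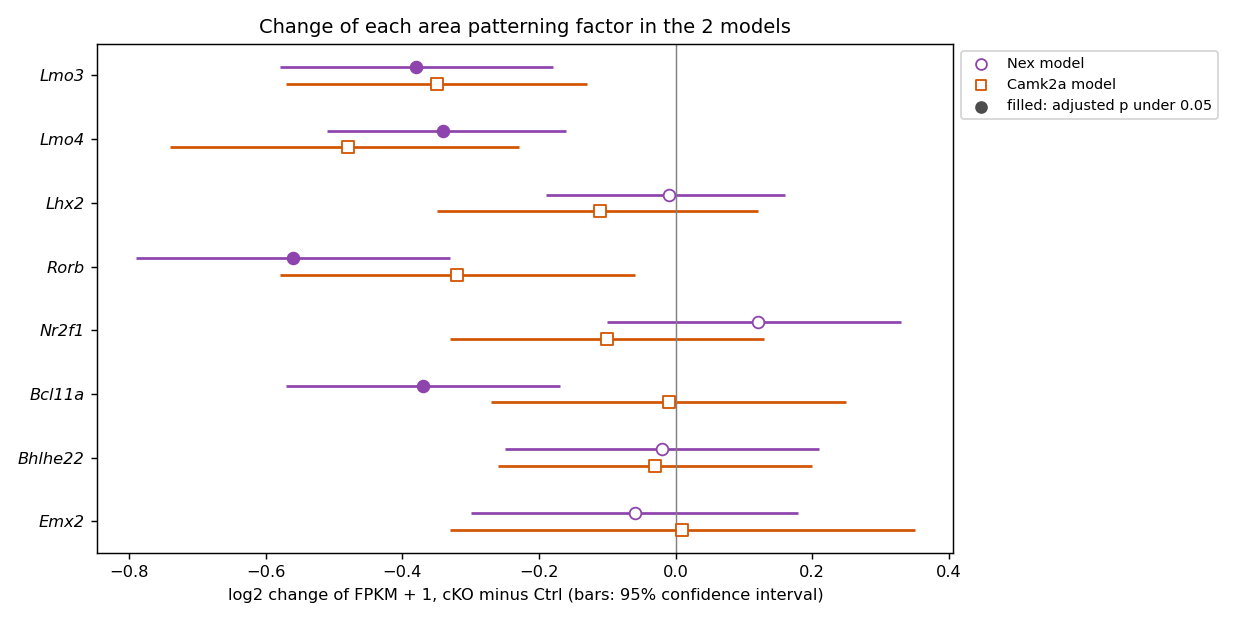
log2 change of FPKM + 1, cKO minus Ctrl (x axis), of each gene (y axis) in the Nex model (circles, 3 against 3 libraries) and the Camk2a model (squares, 2 against 2), with 95% confidence intervals as bars and filled symbols for adjusted p under 0.05. In each model 7 of the 8 genes lie left of 0, all but Nr2f1 in the Nex and all but Emx2 in the Camk2a model. Some of these lie close to 0, and the median of all genes tested was -0.04 and -0.01. In the Nex model the sign changed in 5 of 13 alternative settings for Lhx2, 7 for Bhlhe22 and 1 for Emx2. In the Camk2a model it changed in 5 of 12 for Bcl11a and 4 for Bhlhe22. The intervals of Lmo3, Lmo4 and Rorb lie left of 0 in both models. Bcl11a lies at -0.37 in the Nex and -0.01 in the Camk2a model.

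The change in the Nex model minus the change in the Camk2a model was tested with limma over the 10116 genes tested in both tables, where 0 of the 8 genes and 0.554% of all genes passed. The models differ at once in age, Cre driver, gene models and, by Xist and Ddx3y, in the sex of all but 1 Nex library, and these cannot be told apart. The widest difference among the 8 was that of Bcl11a, -0.36 (SE 0.14, 95% interval -0.67 to -0.06, limma unadjusted p = 0.0221, adjusted p = 0.302). For Rorb the difference was -0.24 (95% interval -0.57 to 0.09), for Lmo4 0.15 (-0.13 to 0.42) and for Nr2f1 0.22 (-0.09 to 0.53), or 0.12 without Nex_cKO replicate 3. The difference was smallest in size for Bhlhe22, at 0.01, and for Lmo3, at -0.03 (95% interval -0.32 to 0.25). Though 4 genes passed in one model and 0 in the other, none of the 8 was shown to differ between them.

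Lmo3 and Lmo4 work with partners, and of 8 other genes of that complex (further Lmo genes, the Ldb adaptors, the Ssbp proteins that stabilise them and Rlim, which marks them for breakdown) 3 fell and 0 rose in the Nex model, where 4.06% of all genes tested fell and 4.47% rose. Under each of the 3 other scalings the count was 1 lower and 1 higher, and without Nex_cKO replicate 3 it was 2 lower and 0 higher. Ssbp4 was at 67.44, 70.68 and 57.82 FPKM in Nex_cKO libraries, against 87.51, 94.78 and 92.31 FPKM in Nex_Ctrl libraries (log2 change -0.48, SE 0.09, limma adjusted p = 0.0103). Ldb1 averaged 34.81 ± 0.228 FPKM in Nex_cKO and 42.31 ± 2.61 FPKM in Nex_Ctrl (-0.27, limma adjusted p = 0.0462). Ldb2 averaged 9.704 ± 1.38 FPKM in Nex_cKO and 14.03 ± 2.08 FPKM in Nex_Ctrl (-0.49, limma adjusted p = 0.0497). The median over the 8 partners was -0.22, against -0.04 over all genes. Ldb1 missed the threshold in 9 of 13 alternative settings and Ldb2 in 12, with the sign negative in all of them, and Ssbp4 missed it in 2, on leaving out Nex_Ctrl replicate 2 or 3. Ldb1 missed it on leaving out any Nex library but Nex_cKO replicate 3 (adjusted p up to 0.177), and Ldb2 on leaving out any of the 6 (up to 0.17).

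Members of the partner list did not all go one way. Ssbp2 averaged 15.39 ± 0.317 FPKM in Nex_cKO and 12.7 ± 0.524 FPKM in Nex_Ctrl (log2 change 0.26, limma adjusted p = 0.0587), and it was past the threshold in the 3 fits on other scalings. Lmo1, the closest relative of Lmo3, averaged 5.813 ± 0.437 FPKM in Nex_cKO and 8.04 ± 1.76 FPKM in Nex_Ctrl (-0.39, limma adjusted p = 0.13). In the Camk2a model 0 of the 8 partners passed. Lmo1 was at 2.353 and 2.376 FPKM in Camk2a_cKO, against 3.558 and 3.552 FPKM in Camk2a_Ctrl libraries (-0.44, limma adjusted p = 0.501). Ldb2 was at 5.052 and 7.114 FPKM in Camk2a_cKO, against 9.583 and 10.7 FPKM in Camk2a_Ctrl libraries (-0.67, limma adjusted p = 0.477).

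Rorb was compared with 11 other genes known from layer 4 or the barrels, of which 3 rose and 2 fell in the Nex model, beside 4.47% and 4.06% of all genes tested. Without Nex_cKO replicate 3, 3 rose and 3 fell. Rspo1, which encodes a secreted activator of Wnt signalling and is enriched in layer 4, was at 26.4, 30.97 and 22.16 FPKM in Nex_cKO libraries, against 15.3, 15.34 and 15.77 FPKM in Nex_Ctrl libraries (log2 change 0.73, SE 0.11, limma adjusted p = 0.00419). Scnn1a, a sodium channel subunit used to mark layer 4 neurons, averaged 4.795 ± 0.764 FPKM in Nex_cKO and 2.658 ± 0.432 FPKM in Nex_Ctrl (0.66, limma adjusted p = 0.017). Endou averaged 2.979 ± 0.331 FPKM in Nex_cKO and 1.345 ± 0.424 FPKM in Nex_Ctrl (0.78, limma adjusted p = 0.0143). These 3 genes lay above all controls while Rorb lay below all of them.

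Whrn, a scaffold protein gene also enriched in layer 4, was at 11.17, 13.19 and 11.77 FPKM in Nex_cKO libraries, against 19.12, 17.25 and 19.41 FPKM in Nex_Ctrl libraries (log2 change -0.59, SE 0.09, limma adjusted p = 0.00344). Btbd3, which orients the dendrites of layer 4 neurons towards thalamic input in the mouse, averaged 36.29 ± 1.16 FPKM in Nex_cKO and 44.81 ± 1.16 FPKM in Nex_Ctrl (-0.30, limma adjusted p = 0.0241). Rspo1 and Whrn passed in all 13 alternative settings, Endou in 11, Scnn1a in 10 and Btbd3 in 5. Endou missed the threshold without Nex_cKO replicate 1 and without Nex_Ctrl replicate 2, and Scnn1a on leaving out either of these or Nex_Ctrl replicate 1. Btbd3 missed it on leaving out Nex_cKO replicate 1 or any control (adjusted p up to 0.106). The layer 4 genes as a list had a median of -0.04, equal to that of all genes. Of the 10 tested in the Camk2a model 0 passed, 7 had a positive and 3 a negative change, and the median was 0.12 against -0.01 over all genes tested there. Scnn1a had a log2 change of 0.42 (limma adjusted p = 0.817), Endou of 0.24 (0.817), Rspo1 of 0.11 (0.873) and Whrn of -0.13 (0.868). Btbd3 was at 41.58 and 42.66 FPKM in Camk2a_cKO, against 52.43 and 55.73 FPKM in Camk2a_Ctrl libraries (-0.35, limma adjusted p = 0.501).

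Of 22 other regulators of area patterning, 17 were tested in the Nex model, 3 of them in rows joined with a second gene, and 1 rose and 4 fell, as they did without Nex_cKO replicate 3, beside 4.47% and 4.06% of all genes tested. Under each of the 3 other scalings 1 rose and 2 fell. The 5 others, Sp8, Dmrt3, Fgf8, Eomes and Lhx9, were under 1 FPKM. Nr2f2 (COUP-TFII), the paralog of Nr2f1, was at 3.455, 3.157 and 3.207 FPKM in Nex_cKO libraries, against 1.59, 1.553 and 1.31 FPKM in Nex_Ctrl libraries (log2 change 0.78, SE 0.10, limma adjusted p = 0.00191). The cKO level was 2.21 times the control level, while the groups of Nr2f1 overlapped. Nr2f2 in the Camk2a model was at 0.9965 and 1.221 FPKM in cKO and 0.9906 and 1.091 FPKM in Ctrl libraries (0.05), and the difference between the models, 0.74, did not pass (limma adjusted p = 0.0767).

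Meis2, a homeobox cofactor, was at 7.169, 7.784 and 7.547 FPKM in Nex_cKO libraries, against 12.85, 14.11 and 14.16 FPKM in Nex_Ctrl libraries (log2 change -0.79, SE 0.08, limma adjusted p = 0.000369). Meis2 in the Camk2a model was at 4.8 and 5.462 FPKM in cKO and 4.503 and 4.759 FPKM in Ctrl libraries, and its change differed between the models by -0.91 (limma adjusted p = 0.00931). Tbr1, a T-box factor of early-born neurons, averaged 47.62 ± 1.26 FPKM in Nex_cKO and 65.81 ± 2.97 FPKM in Nex_Ctrl (-0.46, limma adjusted p = 0.00333). Meis2, Tbr1 and Nr2f2 passed in all 13 alternative settings.

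Fezf2, which directs the fate of deep-layer neurons, averaged 8.941 ± 1.67 FPKM in Nex_cKO and 12.79 ± 0.621 FPKM in Nex_Ctrl (log2 change -0.49, limma adjusted p = 0.0462). Bcl11b (Ctip2), the paralog of Bcl11a and a factor of subcerebral projection neurons, averaged 5.507 ± 0.906 FPKM in Nex_cKO and 7.772 ± 0.178 FPKM in Nex_Ctrl (-0.44, limma adjusted p = 0.0465). Both passed in 4 of 13 alternative settings, and missed the threshold on leaving out Nex_cKO replicate 1 or any control (adjusted p up to 0.159 for Fezf2 and 0.146 for Bcl11b). The paralogs of Rorb and Emx2 did not pass: Rora averaged 12.79 ± 1.65 FPKM in Nex_cKO and 9.966 ± 0.764 FPKM in Nex_Ctrl (0.33, limma adjusted p = 0.0968), and Emx1 averaged 20.08 ± 2.17 FPKM in Nex_cKO and 24.65 ± 1.41 FPKM in Nex_Ctrl (-0.29, limma adjusted p = 0.096). Among the Camk2a libraries 0 of 13 tested regulators passed, and Emx1 was at 12.24 and 15.14 FPKM in cKO and 7.106 and 10.31 FPKM in Ctrl libraries (0.61, limma adjusted p = 0.569).

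Genes that are expressed by area in the cortex, such as cadherins and Eph receptors with their ephrins, were a further list. Of 20 tested in the Nex model, 2 fell and 0 rose, also without Nex_cKO replicate 3, which is near the 4.06% and 4.47% of all genes tested and is no result about the list. Efna5, an ephrin that guides thalamic axons, averaged 7.475 ± 0.274 FPKM in Nex_cKO and 10.01 ± 0.629 FPKM in Nex_Ctrl (log2 change -0.38, limma adjusted p = 0.0248). Cdh11, a cadherin, averaged 11.09 ± 0.248 FPKM in Nex_cKO and 13.81 ± 0.303 FPKM in Nex_Ctrl (-0.29, limma adjusted p = 0.0359). Efna5 passed in 7 and Cdh11 in 4 of the 13 alternative settings. Both missed the threshold on leaving out Nex_cKO replicate 1 or 2 or Nex_Ctrl replicate 2 or 3 (adjusted p up to 0.106 for Efna5 and 0.135 for Cdh11), and Cdh11 also on leaving out Nex_Ctrl replicate 1. Of 19 tested in the Camk2a model 0 passed, 18 of the 19 had a negative change, and the median was -0.19 against -0.01 over all genes tested there. Cdh10 lay among these, at 4.292 and 3.237 FPKM in Camk2a_cKO and 5.979 and 4.891 FPKM in Camk2a_Ctrl libraries (-0.44, limma adjusted p = 0.65), a gene picked out with its values in view.

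**Figure D4:**
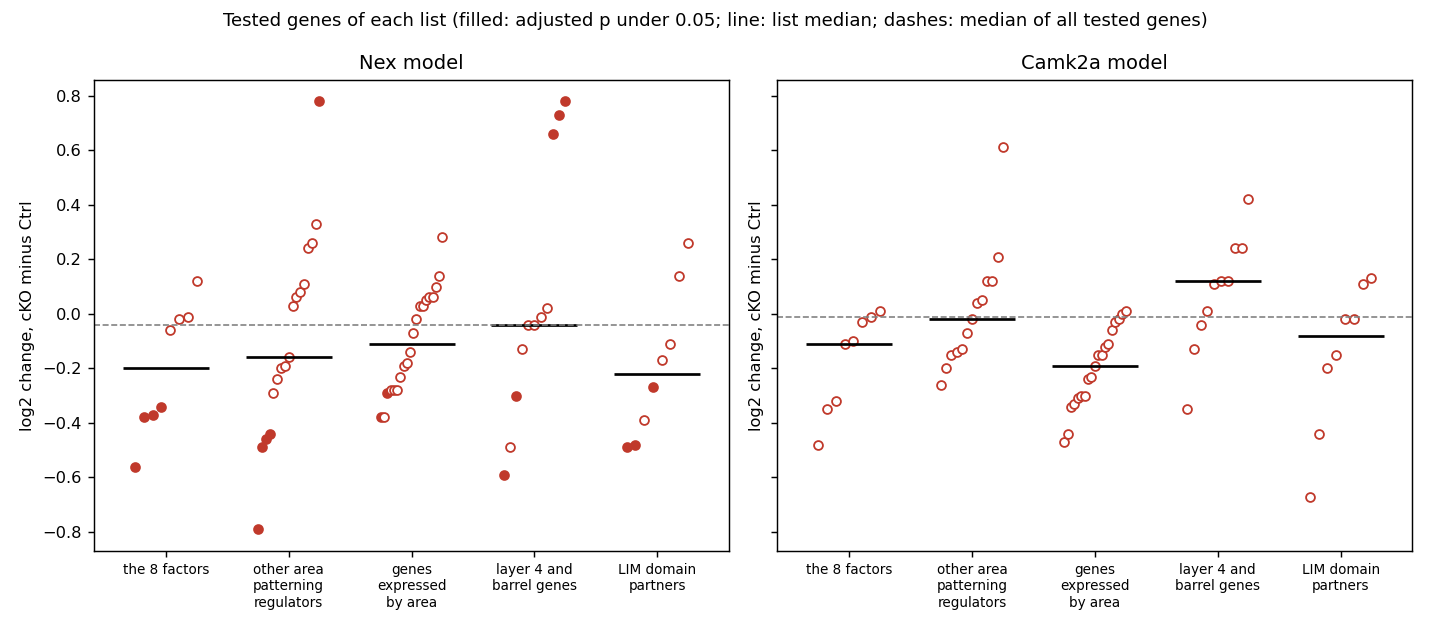
log2 change, cKO minus Ctrl (y axis), of each tested gene of the 8 factors and of 4 related lists (x axis) in the Nex model (left) and the Camk2a model (right). Each point is a gene, filled where the adjusted p was under 0.05, lines are list medians and dashes the median of all genes tested. Filled points lie in the Nex panel, on both sides of 0 for the layer 4 list and the other regulators and under 0 for the 8 factors, the genes expressed by area and the LIM domain partners.

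Summed FPKM of oligodendrocyte, astrocyte, endothelial and red blood cell genes lay apart between the Nex groups. Apart from the globin loci, most of these markers did not pass. Of all genes tested, 4.06% fell and 4.47% rose. The median log2 change was -0.28 over the oligodendrocyte, 0.05 over the astrocyte and -0.21 over the endothelial markers, against -0.04 over all genes tested. Summed FPKM of 8 oligodendrocyte markers was 1056 to 1272 in Nex_cKO and 1372 to 1485 in Nex_Ctrl libraries, with 1 of the 8, Sox10, lower. The 9 astrocyte markers summed to 911.3 to 966.4 FPKM in Nex_cKO and 829.4 to 902.6 FPKM in Nex_Ctrl libraries, with 1 of the 9, Gfap, higher. The 6 endothelial markers summed to 59.68 to 78.8 FPKM in Nex_cKO and 84.97 to 101.8 FPKM in Nex_Ctrl libraries, with 1 of the 6, Cldn5, lower. Red blood cell genes summed to 50.74 to 95.05 FPKM in Nex_cKO and 124.5 to 272.4 FPKM in Nex_Ctrl libraries, and both tested globin loci were lower. None of the markers of these 4 lists found in the table was at 0 in all libraries. Of the marker genes named, Sox10, Cldn5, both globin loci and Neurod2 missed the threshold on leaving out some single libraries, with adjusted p of up to 0.0859 for Sox10 and 0.144 for Cldn5.

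Glutamatergic neurons, the cells targeted by either driver, had 6 markers. These summed to 618.7 to 750.8 FPKM in Nex_cKO and 734.9 to 780.2 FPKM in Nex_Ctrl libraries, which overlapped. Of the 6, Neurod6 and Tbr1 were lower and Neurod2 higher, where 4.06% of all genes tested fell and 4.47% rose. Neurod6 is the locus that carries Nex-Cre, and the part of the driver allele in its value was not tested. The 12 GABAergic markers summed to 691.1 to 1076 FPKM in Nex_cKO and 941 to 1078 FPKM in Nex_Ctrl libraries, with Gad2 higher. The 6 microglial markers summed to 110.1 to 117.8 FPKM in Nex_cKO and 94.61 to 114.3 FPKM in Nex_Ctrl libraries. Of neighbouring tissue, the 4 hippocampal markers summed to 5.661 to 6.191 FPKM in Nex_cKO and 3.379 to 4.178 FPKM in Nex_Ctrl libraries, with Fibcd1 higher and Dsp and C1ql2 under 1 FPKM throughout. Markers of claustrum and piriform cortex summed to 21.09 to 31.56 FPKM in Nex_cKO and 28.81 to 44.01 FPKM in Nex_Ctrl libraries, and thalamic markers to 15.78 to 19.0 FPKM in Nex_cKO and 13.43 to 17.05 FPKM in Nex_Ctrl libraries. The part of these shifts in the changes of the 8 genes was not tested.

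In the Camk2a model 0 markers passed. Red blood cell genes summed to 124.4 and 159.3 FPKM in Camk2a_cKO and 80.44 and 100.9 FPKM in Camk2a_Ctrl libraries. Astrocyte markers summed to 716.7 and 734.3 FPKM in Camk2a_cKO and 692.0 and 714.6 FPKM in Camk2a_Ctrl libraries, and thalamic markers to 9.636 and 9.786 FPKM in Camk2a_cKO and 10.4 and 10.71 FPKM in Camk2a_Ctrl libraries. Markers of claustrum and piriform cortex summed to 20.7 and 25.59 FPKM in Camk2a_cKO and 27.77 and 32.24 FPKM in Camk2a_Ctrl libraries. Glutamatergic markers summed to 384.0 and 435.4 FPKM in Camk2a_cKO and 405.8 and 429.5 FPKM in Camk2a_Ctrl libraries, which overlapped, as did the sums of the GABAergic, oligodendrocyte, microglial, endothelial and hippocampal markers. The part of these values in the changes of the 8 genes was not tested.

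For each of the 8 genes, the gene with the most similar profile was sought by Pearson's r of log2(FPKM + 1) over the 10 libraries, each table centred on its control mean, among 10116 genes. Lmo3 was closest to Fam3c (r = 0.983), Lmo4 to Clic5 (r = 0.982) and Bcl11a to Apopt1 (r = 0.969). Rorb was closest to Adcy2 (r = 0.9645), Nr2f1 to C1galt1 (r = 0.9651) and Lhx2 to Mtrf1l (r = 0.9639). Emx2 was closest to 6430548M08Rik (r = 0.9491) and Bhlhe22 to Cry2 (r = 0.9356). Fam3c followed Lmo3 closely, at 17.81, 16.48 and 18.4 FPKM in Nex_cKO against 23.82, 26.15 and 26.74 FPKM in Nex_Ctrl libraries, and at 15.55 and 15.67 FPKM in Camk2a_cKO against 22.07 and 21.59 FPKM in Camk2a_Ctrl libraries. These are the highest of 10116 values over 10 points that share libraries, and serve as a description only.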

How the data were processed

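The authors deposited FPKM values in 2 tables, one per model. Per the submitters' processing notes, cutadapt, STAR, Cufflinks 2.2.1 and DESeq2 were used, with mm10 and GRCm38 as builds; their roles are not given in the sources used here. Per the labels' protocols, RNAiso Plus served for total RNA and the NEBNext Ultra II RNA kit for the libraries. Of repeated names, the row of highest mean was kept. Genes reaching FPKM 1 in at least the smaller group's number of libraries were fitted with limma 3.58.1 (trend) in R 4.3.3 on log2(FPKM + 1), each table apart, with a Benjamini-Hochberg threshold of 0.05. The script was tested on simulated data. In the Camk2a table, dividing FPKM times length by the step of 1 read gave whole reads for 100% of values (tolerance 0.1); intervals cover the spread between samples. In the Nex table depth is unknown.

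The 8 genes and the lists were chosen with earlier results of these data known. Named were all 8 genes, Nsd1 and the driver genes, passing list genes (up to 6 per list), close paralogs and the gene most alike to each of the 8. Ssbp2 and Cdh10 did not pass and were added with their values in view. Alternatives were another pseudocount, no filter, other scalings, summed rows, a replicate block, voom on reads and leaving out each library. Tables were matched by exact gene name. The striatal marker list is not reported here.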

Additional observations from a re-analysis of the deposited data

How the results depend on the processing

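Of the 8 genes, 4 were lower in the Nex model, and 4 again with a pseudocount of 0.1, with no filter and with repeated rows summed. The count was 1 (Rorb) under quantile normalization, 1 (Rorb) under median ratio rescaling and 0 after rescaling to the summed FPKM of named rows, which was chosen after seeing the data. Leaving out 1 library at a time gave 0 to 4 genes: 2, 1 and 4 for Nex_cKO replicates 1, 2 and 3, and 2, 1 and 0 for Nex_Ctrl replicates 1, 2 and 3. Over all genes tested, 219, 685 and 564 were lower without Nex_cKO replicates 1, 2 and 3, against 509 as reported. Without Nex_Ctrl replicates 1, 2 and 3 the numbers were 160, 205 and 161. Without Nex_cKO replicate 2, calls thus went down among the 8 genes and up among all genes. Fits without a library have fewer samples, and the cause of these and the other moves was not tested. A fit with replicate number as a block gave 1 gene (Rorb). Same-numbered samples correlated at 0.0167, -0.1038 and -0.0956 in the Nex model, where no sample correlated best with its own number. In the Camk2a model, correlations were 0.0496 for same and -0.0496 for unlike numbers, equal in size because each group held 2 samples. The numbers were therefore not taken to pair samples. The rescaling to named rows moved the median log2 change of all Nex genes to 0.0592, against -0.0431 as reported, and the split of all calls to 666 higher and 217 lower, against 560 and 509. Median ratio rescaling gave 607 and 325, quantile normalization 523 and 361, and the block 497 and 272. Calls among the 8 genes stayed at 0 in the Camk2a model under 12 alternatives and in the difference between models under 16.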
